A study of Mus musculus with 6 samples.

Results

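Transcripts of 10 genes of the transforming growth factor beta (TGF-beta) pathway were followed in macrophages sorted from the mammary glands of tumour-prone mice. The genes were taken by their symbols. They are the ligand genes Tgfb1, Tgfb2 and Tgfb3, the activin subunit gene Inhba, the latent complex genes Ltbp1 and Thbs1, the receptor genes Tgfbr1 and Tgfbr2, the inhibitor gene Smad7 and the target gene Tgfbi. Each symbol matched 1 of the 43432 genes in the deposited table, and all 10 passed the filter on low values and were tested. The macrophages came from female FVB/N mice of genotype MMTV-PyMT, whose transgene places the middle T oncogene of polyomavirus under the mouse mammary tumour virus promoter, active mainly in mammary epithelium. The later group was taken at 11 weeks of age (3 libraries) and the earlier group at 8 weeks (3 libraries), the series describing the comparison as late against early tumours. All mice carried the transgene, so neither group is tumour-free tissue. The sort kept cells positive for CD45, MHC class II and CD14.

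TGF-beta is secreted as a latent complex, in which the mature dimer stays wrapped in its own propeptide, and the propeptide is bound to a carrier protein that docks the complex to matrix or to a cell surface. Release of the dimer lets it bind the type II receptor, which phosphorylates the type I receptor, which in turn phosphorylates SMAD proteins that enter the nucleus and regulate target genes. Macrophages both make TGF-beta and respond to it, and in mammary tumours the ligand is known for restraining epithelial growth early and for acting on stroma and immune cells later.

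Depth, recovered from the table as whole reads, was 38784434 to 75004875 reads per library, with 35.2% to 51.8% of the normalized counts in mitochondrial ribosomal RNA. Titles carry the numbers an1 to an3 within each age, but no label says outright that each library is a separate mouse, so the spread behind each p-value is that of the samples and may be technical. Macrophage markers (10 of 10 with reads in every library) summed to 804068.3 to 945314.4 normalized counts at 11 weeks and 760441 to 980700.3 at 8 weeks. Mammary epithelial markers summed to 23745.4 to 45704.6 at 11 weeks and 7659.1 to 11241.7 at 8 weeks, most of it Csn3 in every library. In bulk RNA of sorted cells, a different number of cells of a type and a different amount of RNA per cell cannot be told apart.

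None of the 10 genes differed between 11 and 8 weeks after adjustment over all genes tested. With limma on log2(normalized count + 1), the lowest adjusted p among them was 0.644, that of Tgfb3. By that rule 0.0507% of the 21675 tested genes were called, and 0 of the 10. At an unadjusted p under 0.05, 8.03% of all tested genes passed and again 0 of the 10. On the recovered reads the edgeR quasi-likelihood test called 0 of the 10 and 0.0201% of all genes it tested, and DESeq2 called 0 of the 10 and 2.66% of all genes to which it gave an adjusted p. The log2 fold changes, 11 weeks over 8 weeks, were positive in 8 genes and negative in 2, Tgfb1 and Tgfbr1, with a median of 0.529, where the median of all tested genes was 0.0517. Over all 21675 tested genes, 11454 were positive and 10221 negative. The largest among the 10, in Ltbp1 and Inhba, came from genes with 0 reads in 1 of the 8-week libraries. In the authors' deposited table the adjusted p of the 10 genes was 0.296 to 0.953, so that 0 of them passed 0.05. Of all 43432 genes there, 272 had an authors' adjusted p under 0.05.

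**Figure D1:**
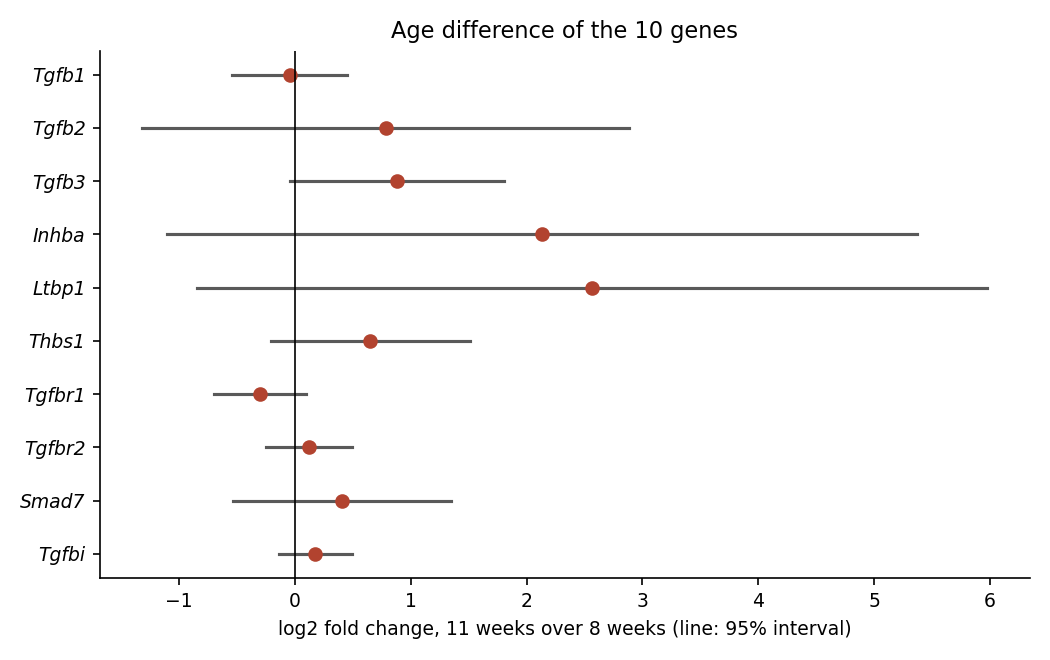
Log2 fold change of the 10 genes, 11 weeks over 8 weeks, from limma (point) with its 95% confidence interval (line). Every interval includes 0. Those of Tgfbi, Tgfbr1, Tgfbr2 and Tgfb1 lie within 1 log2 unit of 0, and those of Inhba and Ltbp1 span over 6 log2 units.

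The ligand genes differed in level far more than they did by age. Per length, as normalized counts per kb of merged exons, the mean of Tgfb1 was 671 ± 38.6 at 11 weeks and 704 ± 172 at 8 weeks (SD, n = 3 each). Tgfb3 averaged 163 ± 21 at 11 weeks and 91.3 ± 33.7 at 8 weeks on the same scale (SD, n = 3 each). Tgfb2 averaged 10.5 ± 5.77 at 11 weeks and 5.52 ± 1.4 at 8 weeks (SD, n = 3 each). Tgfb1 was therefore the main TGF-beta ligand transcript of these cells at both ages, with Tgfb3 next and Tgfb2 lowest of the 3. The order Tgfb1, Tgfb3, Tgfb2 held in each of the 6 libraries.

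The promoters of the highest and the lowest of these ligand genes, and of the target gene with the highest level of all 10, are shown because the levels of the 3 genes lie far apart. They are RefSeq windows of 250 bases before to 50 bases after the annotated start, in build GRCm38.p6, written 5′ to 3′ on the gene's strand, with every GC box (GGGCGG) and TATA box (TATAAA) found on either strand in capitals. The Tgfb1 window is chr7:25686752-25687051 on the plus strand. The Tgfb2 window is chr1:186705940-186706239 on the minus strand. The Tgfbi window is chr13:56609336-56609635 on the plus strand.
Tgfb1: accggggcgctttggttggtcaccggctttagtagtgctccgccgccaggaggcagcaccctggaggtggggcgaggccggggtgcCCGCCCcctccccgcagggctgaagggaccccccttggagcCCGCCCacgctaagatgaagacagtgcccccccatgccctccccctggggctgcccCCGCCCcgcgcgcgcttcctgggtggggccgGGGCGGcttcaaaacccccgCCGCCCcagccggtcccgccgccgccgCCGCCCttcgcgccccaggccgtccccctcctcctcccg
Tgfb2: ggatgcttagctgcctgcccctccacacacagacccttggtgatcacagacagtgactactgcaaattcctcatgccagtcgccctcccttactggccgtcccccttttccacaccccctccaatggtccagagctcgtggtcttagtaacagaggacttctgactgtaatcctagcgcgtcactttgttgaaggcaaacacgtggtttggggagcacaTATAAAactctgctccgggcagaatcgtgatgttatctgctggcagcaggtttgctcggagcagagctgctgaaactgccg
Tgfbi: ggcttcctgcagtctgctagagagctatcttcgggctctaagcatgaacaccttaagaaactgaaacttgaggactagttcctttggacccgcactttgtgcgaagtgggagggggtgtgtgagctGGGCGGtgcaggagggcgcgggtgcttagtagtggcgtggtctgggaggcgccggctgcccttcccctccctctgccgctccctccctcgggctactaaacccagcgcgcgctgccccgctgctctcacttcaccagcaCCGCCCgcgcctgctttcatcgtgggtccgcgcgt
The Tgfb1 window was 77% G and C and held 6 GC boxes and 0 TATA boxes. The Tgfb2 window was 54.3% G and C and held 0 GC boxes and 1 TATA box, which begins 31 bases before the start. The Tgfbi window held 2 GC boxes and 0 TATA boxes. Of all 32851 RefSeq windows of this length, 35.7% held a GC box and 13.6% a TATA box by the same search. The SMAD box CAGACA, searched on both strands, was found in 21% of all windows, in the Tgfb2 window and in neither the Tgfb1 nor the Tgfbi window. Of the genes not shown, a window of Ltbp1 held 2 matches and a window of Tgfbr1 held 1, while those of Inhba and Tgfbr2 held 0. The AP-1 site TGACTCA, found in 5.2% of all windows, was in none of the 9 windows of the 7 genes listed (Tgfb1, Tgfb2, Inhba, Ltbp1, Tgfbr1, Tgfbr2 and Tgfbi). The cyclic AMP response element TGACGTCA, found in 1.79% of all windows, was in 1 of them, in a window of Ltbp1. A match describes letters and not a bound site, and a link between matches and transcript levels was not tested. Tgfb3, Thbs1 and Smad7 were not in the promoter table.

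Tgfb1 encodes the ligand isoform most widely made by immune cells. Its gene covers positions 25687002 to 25705077 of chromosome 7 in GRCm38, the build of the deposited table. Its normalized counts were 3437, 3545.4 and 3167.7 in 11-week replicates 1, 2 and 3, against 2975.4, 3124 and 4548.9 in 8-week replicates 1, 2 and 3. The 11-week libraries lay close together and within the 8-week range, which was set by the high 8-week replicate 3. The log2 fold change was -0.04 ± 0.23 (SE), with a 95% interval of -0.54 to 0.45 (limma adjusted p = 0.968). Its sign was positive without 8-week replicate 3 (0.15), without 11-week replicate 3 (0.0029) and with upper quartile scaling (0.094).

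Tgfb3 encodes a ligand isoform known best from palate development, and it came closest to an age difference among the 10. Its normalized counts were 575.6, 470.8 and 606.3 in 11-week replicates 1, 2 and 3, against 241.6, 440.5 and 244.3 in 8-week replicates 1, 2 and 3. The 2 ages did not overlap, although 8-week replicate 2 lay just under 11-week replicate 2. Non-overlap occurred in 11.9% of all tested genes and in 1 of these 10, so the share among them was near the background. Its log2 fold change was 0.88 ± 0.44 (SE), with a 95% interval of -0.04 to 1.81 (limma adjusted p = 0.644). In the authors' deposited table Tgfb3 had a log2 fold change of 0.695, a p of 0.026 and an adjusted p of 0.296.

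Sums of other cell types' markers also differed between the libraries. The epithelial list had 9 of 10 members positive, 1 of them called (Csn3), and its sum did not overlap between the ages. Most of that sum was Csn3, at 32482.5, 19883.5 and 27046.4 at 11 weeks, against 5232.1, 6558.4 and 8277.1 at 8 weeks. Of the others, Csn2 and Krt19 did not overlap between the ages, while Epcam, Krt8, Krt18, Krt14, Krt5, Cldn4 and Cdh1 did. The fibroblast list had 7 of 8 members positive and summed to 2355.8, 1395.1 and 3306.3 normalized counts in 11-week replicates 1, 2 and 3, against 1173.5, 1656.9 and 1060.8 in 8-week replicates 1, 2 and 3. Both lists and Tgfb3 were lowest, among the 11-week libraries, in replicate 2. Among the 8-week libraries, Tgfb3 and the fibroblast sum were highest in replicate 2. The epithelial sum was highest in 8-week replicate 3 instead, at 7659.1, 9516.3 and 11241.7 in 8-week replicates 1, 2 and 3. The endothelial list had 4 of 7 members positive and summed to 683.2, 681.5 and 1244.4 in 11-week replicates 1, 2 and 3, against 531.4, 419.8 and 543.1 in 8-week replicates 1, 2 and 3, without overlap, with Kdr, Tek, Emcn and Cldn5 at 0 in some libraries. The neutrophil list had 5 of 6 tested members positive and summed to 3975.3 to 5606.9 at 11 weeks and 1710.8 to 4150.7 at 8 weeks, the highest 8-week sum being that of replicate 2, with Ly6g, Camp, Ngp and Retnlg at 0 in some libraries. The fibroblast sums overlapped between the ages. No gene of the fibroblast list was at 0 reads in any library, and of the epithelial list Krt14 and Krt5 were at 0 in some libraries. Their part in the Tgfb3 values was not tested. Tgfb3 covers positions 86056744 to 86079041 of chromosome 12, on the minus strand, inside the span of the coding gene Ttll5 on the other strand. No exons of the 2 genes overlap in the annotation, but counting is not stated to have used strand. Ttll5 averaged 850.1 normalized counts at 11 weeks and 928.5 at 8 weeks.

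Tgfb2, the ligand isoform known from heart and eye development, was at 53.3, 31.3 and 97 normalized counts in 11-week replicates 1, 2 and 3, against 40.1, 31.9 and 23.9 in 8-week replicates 1, 2 and 3. These rest on 31 to 107 reads at 11 weeks and 23 to 45 at 8 weeks, and the ages overlapped. The highest library, 11-week replicate 3, had an exact Poisson 95% interval of 79.5 to 117, and the lowest, 8-week replicate 3, one of 15.9 to 34.5. Such intervals cover counting error only. On the log2 scale the fold change was 0.78 ± 0.99 (SE; limma adjusted p = 0.839), and it was 0.38 without 11-week replicate 3 and 1.18 without 11-week replicate 2. The gene covers positions 186622792 to 186705989 of chromosome 1.

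Of the summed ligand level per kb, Tgfb1 took 79.2%, 82.9% and 76.2% in 11-week replicates 1, 2 and 3, against 88.3%, 82% and 92.2% in 8-week replicates 1, 2 and 3. Tgfb3 took 19.8%, 16.4% and 21.7% at 11 weeks, against 10.7%, 17.2% and 7.38% at 8 weeks. Tgfb2 took 0.422% to 2.03% over all 6 libraries. These shares do not depend on how libraries were scaled to each other. Tgfb3 took a larger average share at 11 weeks, but the ages overlapped through 8-week replicate 2 and 11-week replicate 2. The two-sided exact permutation test gave p = 0.2 for Tgfb3 and for Tgfb1, in a design whose smallest possible p is 0.1. In all, 6 such shares and ratios were tested, chosen after the values were seen.

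**Figure D2:**
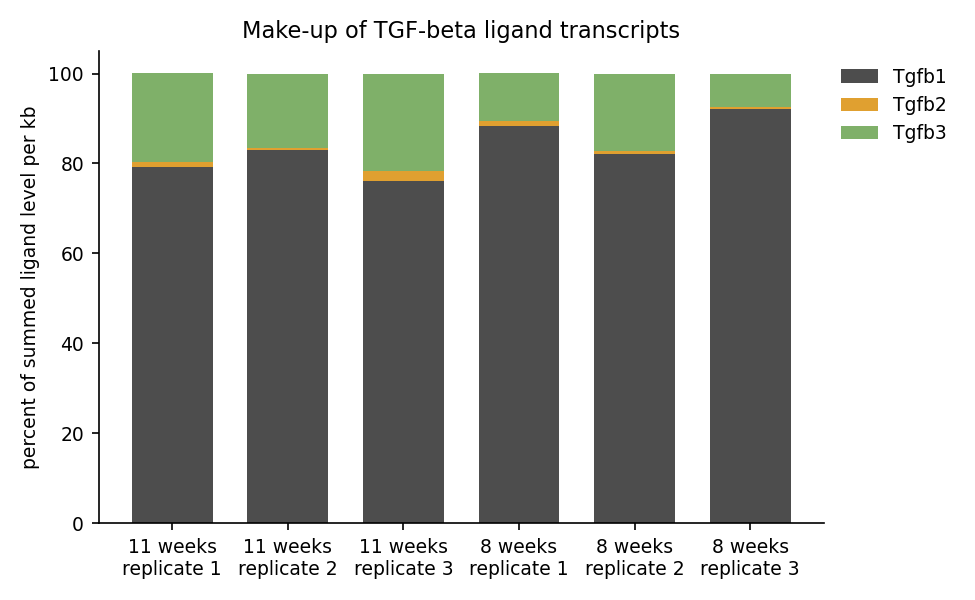
Share of each TGF-beta ligand gene in the summed ligand level (normalized counts per kb of exon) in each library, 11 weeks left and 8 weeks right. Tgfb1 makes up 76.2% to 92.2% of every bar, and Tgfb3 nearly all of the rest.

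Inhba encodes the beta A subunit shared by activin A and inhibin A. Activin A signals through its own receptors to the same SMAD proteins as TGF-beta. Inhba was at 36.8, 205.6 and 111.5 normalized counts in 11-week replicates 1, 2 and 3, against 184.6, 55.4 and 0 in 8-week replicates 1, 2 and 3. Libraries of the same age therefore differed more than the 2 ages did. The 0 in 8-week replicate 3, the deepest library, had an exact Poisson 95% upper limit of 3.15 normalized counts. A floor of 3 reads in that library was 2.56, while 8-week replicate 1 had 207 reads. Replicate 3 had reads in fewer genes, though, 17450 against 18936 in replicate 1. The log2 fold change of Inhba, 2.13 ± 1.52 (SE; limma adjusted p = 0.784), was -0.095 without 8-week replicate 3 and 3.67 without 8-week replicate 1. On the recovered reads edgeR gave a log2 fold change of 0.55 for Inhba. The gene covers positions 16011851 to 16027211 of chromosome 13.

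Ltbp1 encodes a carrier that binds the latent complex to matrix. It was at 41.4, 24.2 and 147.7 normalized counts in 11-week replicates 1, 2 and 3, against 143.6, 0 and 4.3 in 8-week replicates 1, 2 and 3. One high library stood in each age, and 8-week replicate 1 lay near 11-week replicate 3. The 0 in 8-week replicate 2 had an exact Poisson 95% upper limit of 5.11 normalized counts, and 3 reads in that library are 4.16. For Ltbp1 the log2 fold change was 2.57 ± 1.61 (SE; limma adjusted p = 0.74), and it was 4.56 without 8-week replicate 1 and 0.97 without 8-week replicate 2. On the recovered reads edgeR gave 0.51 for Ltbp1. In the authors' deposited table its log2 fold change was 0.111. The gene covers positions 75005568 to 75392512 of chromosome 17.

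Thbs1 encodes thrombospondin 1, a matricellular and platelet granule protein that can activate latent TGF-beta. It was at 1543.8, 2056.5 and 1603.3 normalized counts in 11-week replicates 1, 2 and 3, against 687.5, 2475.7 and 768.7 in 8-week replicates 1, 2 and 3. Of the 8-week libraries 2 lay below all of the 11-week libraries and 1, replicate 2, above all of them. For Thbs1 the log2 fold change was 0.65 ± 0.41 (SE; limma adjusted p = 0.738), and it was 1.24 without 8-week replicate 2 and 0.32 without 8-week replicate 1. Platelet markers summed to 81 to 254.6 normalized counts at 11 weeks and 33.3 to 107 at 8 weeks, 99.7 in 8-week replicate 2, and 3 of the 8 (Gp1bb, Gp6 and Tubb1) were at 0 reads in every library. The digestion-responsive immediate-early genes summed to 248476.6 to 268617.3 at 11 weeks and 261714.6 to 315503.3 at 8 weeks, 266676.8 in 8-week replicate 2. Thbs1 covers positions 118111876 to 118127133 of chromosome 2.

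**Figure D3:**
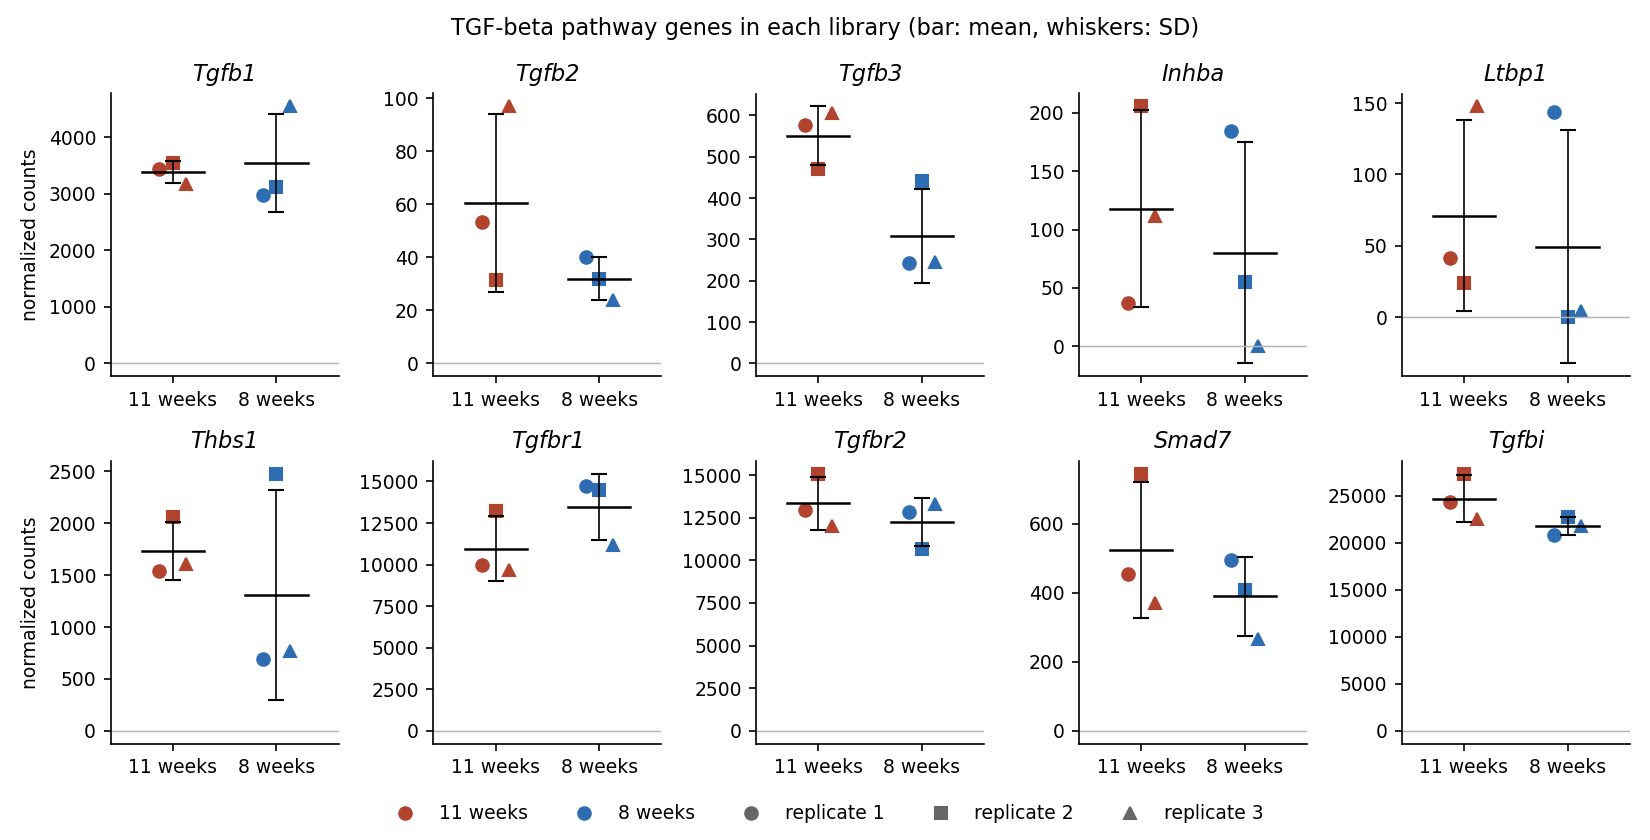
Normalized counts of the 10 genes in each library, 11 weeks left (red) and 8 weeks right (blue), with symbols for the replicate number, a bar for the mean and whiskers for the SD. Tgfb3 is the gene without overlap between the ages. Thbs1 has 8-week replicate 2 at 2475.7 above all other libraries, and Inhba and Ltbp1 each have an 8-week library at 0.

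Both receptor genes were abundant, and per kb each lay above at least 96.1% of the protein-coding genes with a read. Tgfbr1 encodes the type I receptor kinase that phosphorylates SMAD2 and SMAD3. It was at 9982.8, 13213 and 9700.7 normalized counts in 11-week replicates 1, 2 and 3, against 14715.5, 14510.4 and 11162.2 in 8-week replicates 1, 2 and 3. All of the 11-week libraries lay below the 8-week median, but 11-week replicate 2 lay above 8-week replicate 3. The log2 fold change was -0.30 ± 0.19 (SE), with a 95% interval of -0.70 to 0.10 (limma adjusted p = 0.74). Tgfbr1 covers positions 47353222 to 47414931 of chromosome 4.

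Tgfbr2 encodes the type II receptor, which binds the ligand first. It was at 12926.1, 15067.8 and 12036.3 normalized counts in 11-week replicates 1, 2 and 3, against 12815.5, 10646.6 and 13317.9 in 8-week replicates 1, 2 and 3, and the ages overlapped. The log2 fold change was 0.12 ± 0.17 (SE), with a 95% interval of -0.25 to 0.49 (limma adjusted p = 0.85). Within each library the ratio of Tgfbr2 to Tgfbr1, per kb, was 1.03, 0.91 and 0.99 in 11-week replicates 1, 2 and 3, against 0.695, 0.586 and 0.952 in 8-week replicates 1, 2 and 3. The means were 0.978 ± 0.0626 at 11 weeks and 0.744 ± 0.188 at 8 weeks (SD, n = 3 each), and the two-sided exact permutation test gave p = 0.2. The ages overlapped through 8-week replicate 3. Tgfbr2 covers positions 116087698 to 116175363 of chromosome 9.

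Smad7 encodes the inhibitory SMAD that TGF-beta itself induces and that blocks the type I receptor. It was at 455.1, 745 and 369.8 normalized counts in 11-week replicates 1, 2 and 3, against 494.9, 407.3 and 267.3 in 8-week replicates 1, 2 and 3. The highest library was 11-week replicate 2, and the other 2 of that age lay within the 8-week range. For Smad7 the log2 fold change was 0.41 ± 0.44 (SE; limma adjusted p = 0.829), and it was 0.12 without 11-week replicate 2 and 0.16 without 8-week replicate 3. Smad7 covers positions 75367529 to 75395935 of chromosome 18.

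Tgfbi, which encodes a secreted matrix protein named for its induction by TGF-beta, had the highest level of the 10. It was at 24324, 27342.3 and 22487.4 normalized counts in 11-week replicates 1, 2 and 3, against 20853.6, 22747.9 and 21840.1 in 8-week replicates 1, 2 and 3. The 11-week libraries all lay above the 8-week median, and 11-week replicate 3 lay just under 8-week replicate 2. For Tgfbi the log2 fold change was 0.18 ± 0.15 (SE), with a 95% interval of -0.14 to 0.49 (limma adjusted p = 0.804). A doubling lies outside that interval, while for Inhba and Tgfb2 the intervals hold both a doubling and a halving. Tgfbi covers positions 56609603 to 56639339 of chromosome 13.

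Ordered by level per kb over the 6 libraries, the genes were Tgfbi (mean 6170), Tgfbr1 (1870), Tgfbr2 (1560), Tgfb1 (688), Thbs1 (251), Tgfb3 (127), Smad7 (101), Inhba (15.5), Tgfb2 (7.99) and Ltbp1 (5.63). Tgfbi lay above 99.1% of the 16037 protein-coding genes with a read, Tgfb1 above 90.3% and Ltbp1 above 22.4%. The ranges of neighbours did not overlap between Tgfbi and Tgfbr1, Tgfbr2 and Tgfb1, Tgfb1 and Thbs1, or Smad7 and Inhba. They overlapped for Tgfbr1 and Tgfbr2, Thbs1 and Tgfb3, Tgfb3 and Smad7, Inhba and Tgfb2, and Tgfb2 and Ltbp1. The order within these pairs was that of the means in 5, 6, 4, 4 and 5 of the 6 libraries. These levels use the merged exon length of every annotated transcript, so a gene that uses only its shorter transcripts is understated.

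**Figure D4:**
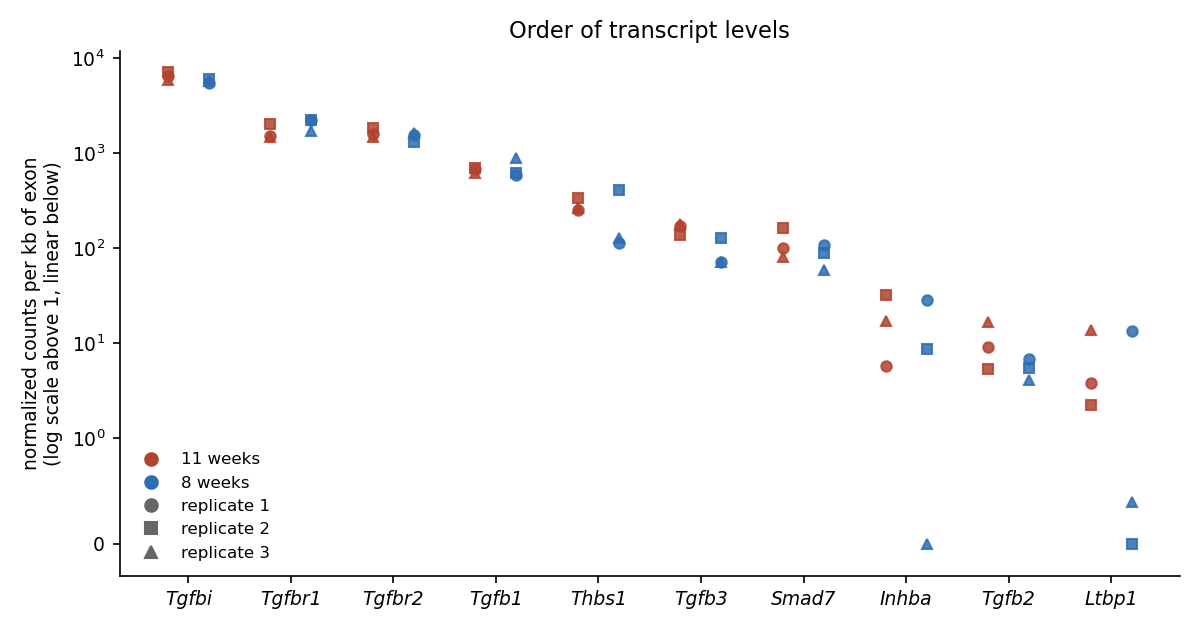
Normalized counts per kb of merged exon for the 10 genes, in order of their mean over the 6 libraries, with 11 weeks left (red) and 8 weeks right (blue) at each gene. The axis is logarithmic above 1 and linear below, and it shows Tgfbi at 6170 on average and Inhba, Tgfb2 and Ltbp1 at 32.2 or lower in every library.

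Of the genes averaging 100 normalized counts or more, Thbs1, Tgfb3 and Smad7 had the 3 largest SDs on the log2 scale over the 6 libraries. Likeness of pattern was the root mean square difference between mean-centred log2(value + 1) profiles over the 6 libraries, computed against 9786 coding genes. Nearest to Thbs1 were Qtrt1 (0.167), Dbr1 (0.199) and Fabp5 (0.2). Nearest to Tgfb3 were Clasrp (0.0995), Tuba4a (0.142) and Abhd5 (0.168). Nearest to Smad7 were Sugt1 (0.0832), Hdgfrp2 (0.119) and Traf2 (0.121). With 6 points a profile has few ways to vary, and near profiles are a description.

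Among 88 other genes of the pathway, in 6 lists, 82 were tested. Of these 0 rose and 1 fell after adjustment, Fn1, which encodes the matrix protein fibronectin. Over all tested genes 0.0369% rose and 0.0138% fell. Unadjusted p was under 0.05 in 12 of the 82 genes (8.03% of all tested genes), and the ages did not overlap in 16 of them, or 19.5% (11.9% of all tested genes). The lists were chosen with earlier results of these data known, so these shares are a description only. The median log2 fold change of the 82 was 0.156, with 54 positive and 28 negative. Over all 21675 tested genes the median was 0.0517, with 11454 positive and 10221 negative. On the recovered reads edgeR called 0 of the 71 pathway genes it tested (0.0201% of all genes). DESeq2 called 5 of the 72 to which it gave an adjusted p (2.66% of all genes), Fn1, Fbn1, Ltbp2, Mmp9 and Ctgf.

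Of 21 other genes known to respond to TGF-beta, 0 rose, 1 fell and 20 did not pass, with 16 positive and a median of 0.11. By limma, 5 of the 21 had an unadjusted p under 0.05, where 8.03% of all tested genes passed. The ages did not overlap in 8 of the 21, or 38.1%, and in 11.9% of all tested genes. This list was chosen with earlier results of these data known, so the share is a description only. Fn1 was at 39857.7, 38997.8 and 42539.5 normalized counts in 11-week replicates 1, 2 and 3, against 84663.4, 59999.3 and 86703.7 in 8-week replicates 1, 2 and 3. Its log2 fold change was -0.91 ± 0.15 (SE; limma adjusted p = 0.0354). Tgm2, which encodes the cross-linking enzyme transglutaminase 2, averaged 10110 ± 3009 at 11 weeks and 5858 ± 1192 at 8 weeks (SD, n = 3 each; limma adjusted p = 0.32). Ctgf, which encodes connective tissue growth factor, was at 62.5, 67.5 and 103.3 normalized counts at 11 weeks, against 0, 6.9 and 6.8 at 8 weeks (limma adjusted p = 0.35). Klf10, an early TGF-beta response transcription factor, averaged 2615 ± 811 at 11 weeks and 4077 ± 497 at 8 weeks (SD, n = 3 each; limma adjusted p = 0.487). The Fn1 call ended under 9 of 15 alternatives, the adjusted p running from 0.00139 to 0.264, with the log2 fold change between -1.08 and -0.77 in all of them. Leaving out any 1 library but 8-week replicate 2 ended it, with adjusted p between 0.0554 and 0.264 (limma). The monocyte markers, 4 of 6 positive, summed to 14739.3, 11886.2 and 10380.4 normalized counts in 11-week replicates 1, 2 and 3, against 23837.1, 11802 and 20006.3 in 8-week replicates 1, 2 and 3. Most of that sum was Ccr2, at 11666.4, 10764.3 and 8567.7 at 11 weeks, against 23122.8, 10916.8 and 18996 at 8 weeks, while Ly6c2 was at 0 in 1 library. Vcan of the same list was higher at 11 weeks, at 2171.8, 714.7 and 1439.3, against 494.9, 426.7 and 677.3 at 8 weeks. Among the 8-week libraries the monocyte sum and Fn1 were both lowest in replicate 2. Across the ages, 11-week replicate 1 had a higher monocyte sum than 8-week replicate 2 (14739.3 against 11802). Its Fn1 was lower (39857.7 against 59999.3). The part of monocytes in the Fn1 values was not tested.

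Of 17 genes of the latent complex and its activation, 0 passed by limma (3 at an unadjusted p under 0.05, where 8.03% of all tested genes passed), with 14 positive and a median of 0.248. Fbn1, which encodes fibrillin 1, the microfibril protein that anchors latent complexes, was at 757.7, 517.1 and 364.4 normalized counts at 11 weeks, against 88.3, 159.3 and 28.2 at 8 weeks (limma adjusted p = 0.193). Ltbp2, a relative of Ltbp1, was at 91.9, 19.2 and 146.8 at 11 weeks, against 0, 0 and 2.6 at 8 weeks (limma adjusted p = 0.272). In both the ages did not overlap, while Ltbp1 itself overlapped. Non-overlap held in 3 of the 17 genes, or 17.6% (11.9% of all tested genes), the third being Mmp9, lower at 11 weeks. Mmp9, a gelatinase that can release TGF-beta, was at 570.1, 482.9 and 678.9 normalized counts at 11 weeks, against 1281.3, 968.4 and 1111.2 at 8 weeks (limma adjusted p = 0.442). Plau, which encodes the plasminogen activator urokinase, averaged 12360 ± 3056 at 11 weeks and 9393 ± 1850 at 8 weeks (SD, n = 3 each; limma adjusted p = 0.701). The fibroblast marker sums given with Tgfb3 stand beside Fbn1, Ltbp2 and Ctgf too: the fibroblast sum was highest in 11-week replicate 3, as were Ltbp2 and Ctgf, while Fbn1 was lowest there among the 11-week libraries. Across the ages, the fibroblast sum of 8-week replicate 2 (1656.9) lay above that of 11-week replicate 2 (1395.1). Ltbp2, Ctgf and Fbn1 were lower in that 8-week library (0, 6.9 and 159.3) than in that 11-week library (19.2, 67.5 and 517.1). Dcn is in both the latent complex list and the fibroblast list. The part of these markers was not tested.

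Of 12 other ligands of the family, 9 were tested and 0 passed by limma (1 at an unadjusted p under 0.05, where 8.03% of all tested genes passed). Bmp2, a bone morphogenetic protein that signals through a different SMAD branch, was at 1877.6, 1117 and 1738.4 normalized counts at 11 weeks, against 494, 163.5 and 929.3 at 8 weeks, without overlap (limma adjusted p = 0.281). Inhbb, the beta B counterpart of Inhba, was at 48.7, 136.1 and 14.5 at 11 weeks, against 84.7, 0 and 0 at 8 weeks (limma adjusted p = 0.651). Gdf11, a ligand close to myostatin, averaged 175 ± 46.1 at 11 weeks and 72.4 ± 53.6 at 8 weeks (SD, n = 3 each; limma adjusted p = 0.658). Bmp7, another bone morphogenetic protein, was at 5.5 normalized counts or lower in every library (limma adjusted p = 0.74). Non-overlap held in 2 of the 9 tested ligands, or 22.2% (11.9% of all tested genes): Bmp2, and Bmp7, which was lower at 11 weeks.

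Of 12 other receptors and co-receptors 11 were tested and 0 passed by limma (0 at an unadjusted p under 0.05, where 8.03% of all tested genes passed), with 6 positive, and the ages overlapped in all 11. Acvr1b, the activin type I receptor, was at 915.8, 1160.3 and 342.6 normalized counts in the 11-week libraries, against 1053.9, 914.3 and 1754.3 in the 8-week ones (limma adjusted p = 0.717). Cd109, a co-receptor that dampens TGF-beta signalling, averaged 400 ± 203 at 11 weeks and 210 ± 73.5 at 8 weeks (SD, n = 3 each; limma adjusted p = 0.756). Tgfbr3, which encodes the co-receptor betaglycan, was at 359.5, 278.2 and 396.1 at 11 weeks, against 89.2, 33.2 and 1062.5 at 8 weeks, so that 8-week replicate 3 set its mean (limma adjusted p = 0.794). Bmpr1a, a type I receptor for bone morphogenetic proteins, averaged 252 ± 57.7 at 11 weeks and 183 ± 89 at 8 weeks (SD, n = 3 each; limma adjusted p = 0.825).

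Of 10 SMAD transducers and partners 0 passed by limma (0 at an unadjusted p under 0.05, where 8.03% of all tested genes passed), with 7 negative and a median of -0.113. Smad1, which carries bone morphogenetic protein signals, was at 1103.4, 859.9 and 693.4 normalized counts at 11 weeks, against 1135.9, 1230.2 and 1262.4 at 8 weeks, without overlap (limma adjusted p = 0.754). It was the 1 gene of these 10 without overlap, or 10% (11.9% of all tested genes). Smad2, which carries TGF-beta and activin signals, averaged 1741 ± 1093 at 11 weeks and 1853 ± 339 at 8 weeks (SD, n = 3 each; limma adjusted p = 0.843). The values of Smad4, the shared partner of both branches, were 1839 ± 352 at 11 weeks and 1549 ± 89.9 at 8 weeks (SD, n = 3 each; limma adjusted p = 0.834). Ep300, a histone acetyltransferase that SMADs recruit, averaged 7011 ± 654 at 11 weeks and 8628 ± 1875 at 8 weeks (SD, n = 3 each; limma adjusted p = 0.785).

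Of 16 inhibitor and feedback genes 14 were tested and 0 passed by limma (3 at an unadjusted p under 0.05, where 8.03% of all tested genes passed), with 10 positive and a median of 0.409. The median was also 0.409 with Fst and Grem1, each at 0 reads in all of the 8-week libraries, set to their lower bounds. Ldlrad4, which competes for SMAD binding at the receptor, was at 1107.1, 1003 and 854.7 normalized counts at 11 weeks, against 747.2, 573.5 and 283.6 at 8 weeks, without overlap (limma adjusted p = 0.543). Pmepa1, a feedback inhibitor induced by TGF-beta and related to Ldlrad4, was at 8575.1, 11545.6 and 10133.9 at 11 weeks, against 7008.3, 9399.8 and 5497 at 8 weeks (limma adjusted p = 0.601). Ski, a co-repressor of SMADs, averaged 5718 ± 1405 at 11 weeks and 7425 ± 577 at 8 weeks (SD, n = 3 each; limma adjusted p = 0.667). Fst, which encodes the activin trap follistatin, was at 1.8, 4 and 64.4 at 11 weeks and at 0 in all of the 8-week libraries (limma adjusted p = 0.574). Its 11-week level rested on replicate 3, since the other 2 lay near or under the 3-read floor of the 8-week libraries, 3.13 normalized counts on average. Non-overlap held in 2 of the 14 tested genes, Ldlrad4 and Fst, or 14.3% (11.9% of all tested genes).

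**Figure D5:**
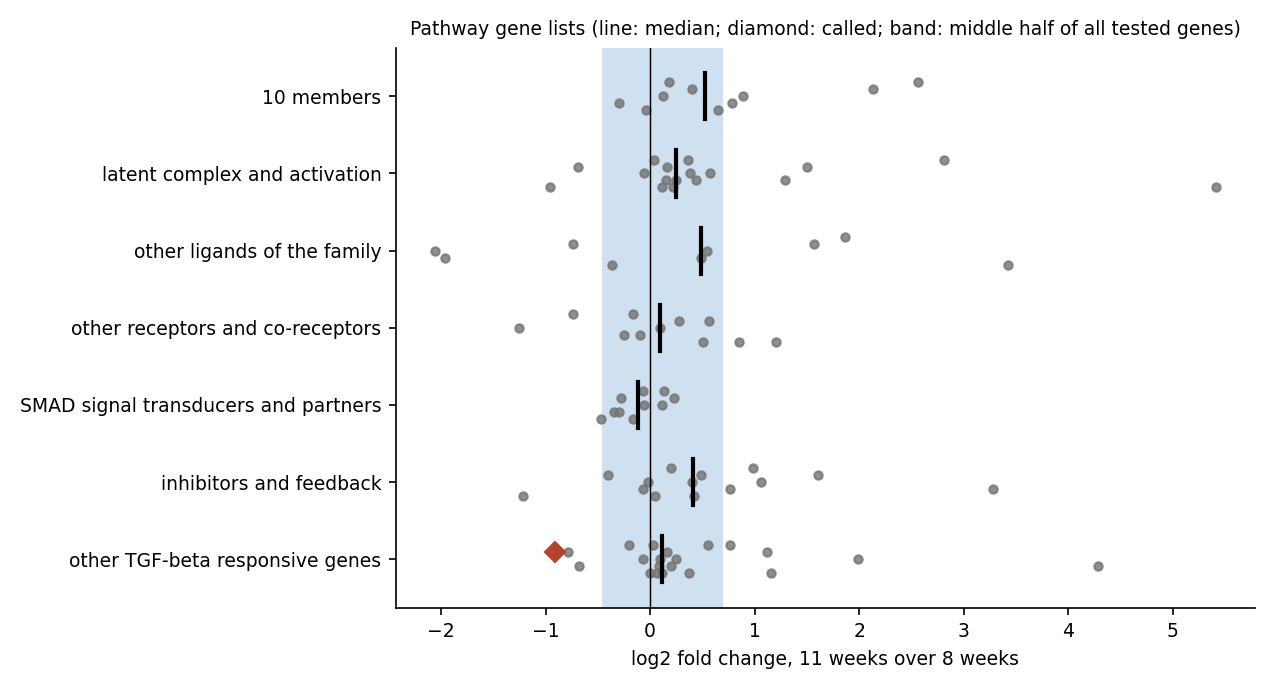
Log2 fold change, 11 weeks over 8 weeks, of each tested gene (point) in the 10-gene set and in 6 lists of other pathway genes, with the median of each list (line). Fn1 (diamond) is the gene called, and the medians of all lists lie within the quartiles of all tested genes, -0.462 to 0.694.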

How the data were processed

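Total RNA of sorted mammary macrophages (11 weeks, 3 libraries; 8 weeks, 3 libraries) was made into libraries with Nugen Ovation and Nextera kits, per the labels' protocols. STAR 2.4, DESeq2 1.6 and build GRCm38 appear, without a role, per the submitters' processing notes. For the counting tool and annotation the notes and labels name none. The authors deposited 1 signal value per gene and library, a gene count scaled by a library-wide size factor as far as the values show. For 11 against 8 weeks the authors' deposited table adds p-values (raw and adjusted), the fold ratio and its log2.

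Division by the worth of 1 read returned whole numbers (tolerance 0.05 normalized counts) for at least 99.984% of the values. Because the values were normalized, the main test was limma (trend, robust) on log2(normalized count + 1), with age as the only term, for genes with a mean of at least 1 in either age, and Benjamini-Hochberg adjustment over all of them at 0.05. Fold changes are on this scale, where those of low genes depend on the pseudocount and those of genes at 0 in a library can exceed the fold from the count tests. No pair of libraries was identical, and chi-square per degree of freedom within an age was 116.25 to 331.5. Lengths came from merged exons in a GRCm38 annotation. No source says that counting used strand. No columns of per-sample values were left unmatched.

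The 10 genes, the pathway and marker lists and the tests were chosen with earlier results of these data known. Named pathway genes are up to 4 per list with the smallest p and every called gene. Alternatives replaced the test (by edgeR quasi-likelihood or DESeq2), scaling, low-value filter or pseudocount, added a replicate block, or left out each library in turn. The limma step was tested on simulated data with known answers. Versions were limma 3.58.1, DESeq2 1.42.0 and edgeR 4.0.16 in R 4.3.3, and scipy 1.17.1, numpy 2.4.6, matplotlib 3.10.9 and pandas 2.3.3 in Python 3.11.15.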

Additional observations from a re-analysis of the deposited data

How the results depend on the processing

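Of the 10 genes 0 were called under any of the 15 alternatives. Their log2 fold changes kept their sign in 146 of 150 recomputations, the exceptions being Tgfb1 with upper quartile scaling (0.094), without 11-week replicate 3 (0.0029) and without 8-week replicate 3 (0.15), and Inhba without 8-week replicate 3 (-0.095). Among the named pathway genes 2 changed sign, Tgfbr3 with edgeR (-0.20) and Smad2 without 11-week replicate 3 (0.26). Without 1 library each, the log2 fold change ran from -0.16 to 0.15 for Tgfb1, from -0.095 to 3.67 for Inhba and from -0.77 to 0.26 for Smad2; the cause of the changes of sign was not tested. Genes called over the whole table, 11 by limma, were 3 with edgeR, 434 with DESeq2, 4 with scaling to library totals, 45 with the replicate block, and 3 to 16 without 1 library each. Other pathway genes called, 1 by limma (Fn1), were 0 with edgeR, scaling to library totals, upper quartile scaling or a pseudocount of 5, 5 with DESeq2 (Fn1, Fbn1, Ltbp2, Mmp9 and Ctgf), 2 with the replicate block (Fn1 and Bmp2), and 0 to 1 without 1 library each. Deviations from the age means correlated by -0.011, -0.004 and -0.01 between same-numbered libraries, and by -0.021 to 0.029 between other-numbered ones. These values show no pairing by number over the genes as a whole, but they cannot exclude it for a part of the genes. Upper quartile scaling moved the median log2 fold change of all genes to 0.182, against 0.0517. Tgfb2, Inhba and Ltbp1 rest on 0 to 207 reads per library, and Inhba had 0 reads in the deepest library. That library, 8-week replicate 3, also had the highest share of mitochondrial ribosomal RNA (51.8%). It had reads in 17450 genes, against 18936 in the less deep 8-week replicate 1.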
